A study of Homo sapiens with 12 samples.

Results

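Transcripts of 42 ribosome biogenesis genes were examined in RD cells after knockdown of the histone methyltransferase EHMT1. The genes were a named set of nucleolar rRNA processing factors and RNA polymerase I subunits, picked out by symbol; the set was proposed with earlier results of these data known. All 42 symbols matched 1 Ensembl gene each among the 61552 identifiers counted, and all 42 passed the filter on low counts, as did 18646 genes in all. Ribosomes are built mainly in the nucleolus. There RNA polymerase I transcribes the precursor of the 18S, 5.8S and 28S rRNAs, small nucleolar ribonucleoproteins (snoRNPs) guide its chemical modification, and a large set of assembly factors folds and cuts it into the 40S and 60S subunits. The pathway is one of the largest users of energy in a growing cell, and MYC is a well-known activator of many of its genes.

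RD cells are a permanent human line that was derived from embryonal rhabdomyosarcoma, a muscle-like tumour of soft tissue, and is labelled as fusion-negative (FN-RMS). The tested cells received an EHMT1-specific small interfering RNA (siRNA, n = 3 libraries) and the control cells a scrambled siRNA (n = 3 libraries), both with Lipofectamine RNAiMAX, and RNA was taken after 48 h. All libraries came from this 1 line, and the labels do not say whether the EHMT1 siRNA was 1 sequence or a pool, nor whether each replicate was its own culture. The p-values therefore measure only how these libraries vary, which may be technical. The 6 libraries of a SOX8 siRNA experiment in the same series were not analysed here.

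Gene counts per library were 40639655 to 42098426 with EHMT1 siRNA and 41095515 to 47258481 with scrambled siRNA. EHMT1 itself averaged 55.0 CPM (counts scaled to library size) with EHMT1 siRNA and 139 CPM with scrambled siRNA, which is 39.6% of the scrambled level (edgeR adjusted p = 9.13e-09). Of the muscle lineage markers, MYOD1, MYOG and DES had counts in every library and MYF5 had 0 in all 6. Of the 8 muscle markers tested 2 rose and 0 fell, against 5.81% and 6.54% of all genes tested. PAX7 rose by 0.28 and TNNT2 by 0.62 on the log2 scale (edgeR adjusted p = 0.0058 and 0.0096). MYH3 was lower and CHRNA1 higher in every EHMT1 siRNA library than in any scrambled one. Neither passed (log2 change -0.26 and 0.17, edgeR adjusted p = 0.0566 for each). The part of these markers in the results that follow was not tested. The 9 muscle markers summed to 1378 to 1447 CPM with EHMT1 siRNA and 1215 to 1376 CPM with scrambled siRNA. The 16 markers of other cell types summed to 77.9 to 82.9 and 72.3 to 80.8 CPM, most of it KRT18; 6 of them were tested, 0 passed by edgeR and 1 was higher at an unadjusted p under 0.05, and KRT19 was at 0 in all 6 libraries. The scrambled libraries were less alike than the EHMT1 siRNA libraries: the chi-square per degree of freedom between 2 libraries of a group was 2.98 to 3.36 with EHMT1 siRNA and 8.88 to 21.0 with scrambled siRNA, where sampling noise alone gives about 1.

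Transcripts of the ribosome biogenesis set were lower with EHMT1 siRNA than with scrambled siRNA. Of the 42 genes, 15 fell and 0 rose (edgeR quasi-likelihood test, Benjamini-Hochberg adjusted p under 0.05), a share of 35.7% that fell, against 6.54% of all genes tested. The share was 8.49% among the 13711 protein-coding genes tested. Neither background was matched to the members for expression level. The median standard error (SE) of the log2 change was 0.064 in the members, 0.096 over all genes and 0.076 over protein-coding genes, so small changes were easier to call in the members. At an unadjusted p under 0.05, 24 members were lower and 0 higher, against 2462 lower and 2312 higher of all 18646 genes tested. DESeq2 and limma-voom also called 0 members that rose. The changes were small: the 15 fallen genes kept 78.5% to 87.0% of their scrambled level, with log2 fold changes of -0.35 for NHP2 to -0.20 for DKC1. The median log2 change was -0.16 over the 42 genes and 0.00 over all genes tested. Of the 42, 38 (90.5%) were below 0, against 49.8% of all genes tested. The median of the fallen members, -0.25, was smaller in size than that of all 1220 genes that fell, -0.31. In bulk RNA such a difference cannot be split into fewer cells of a type and less RNA per cell.

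**Figure D1:**
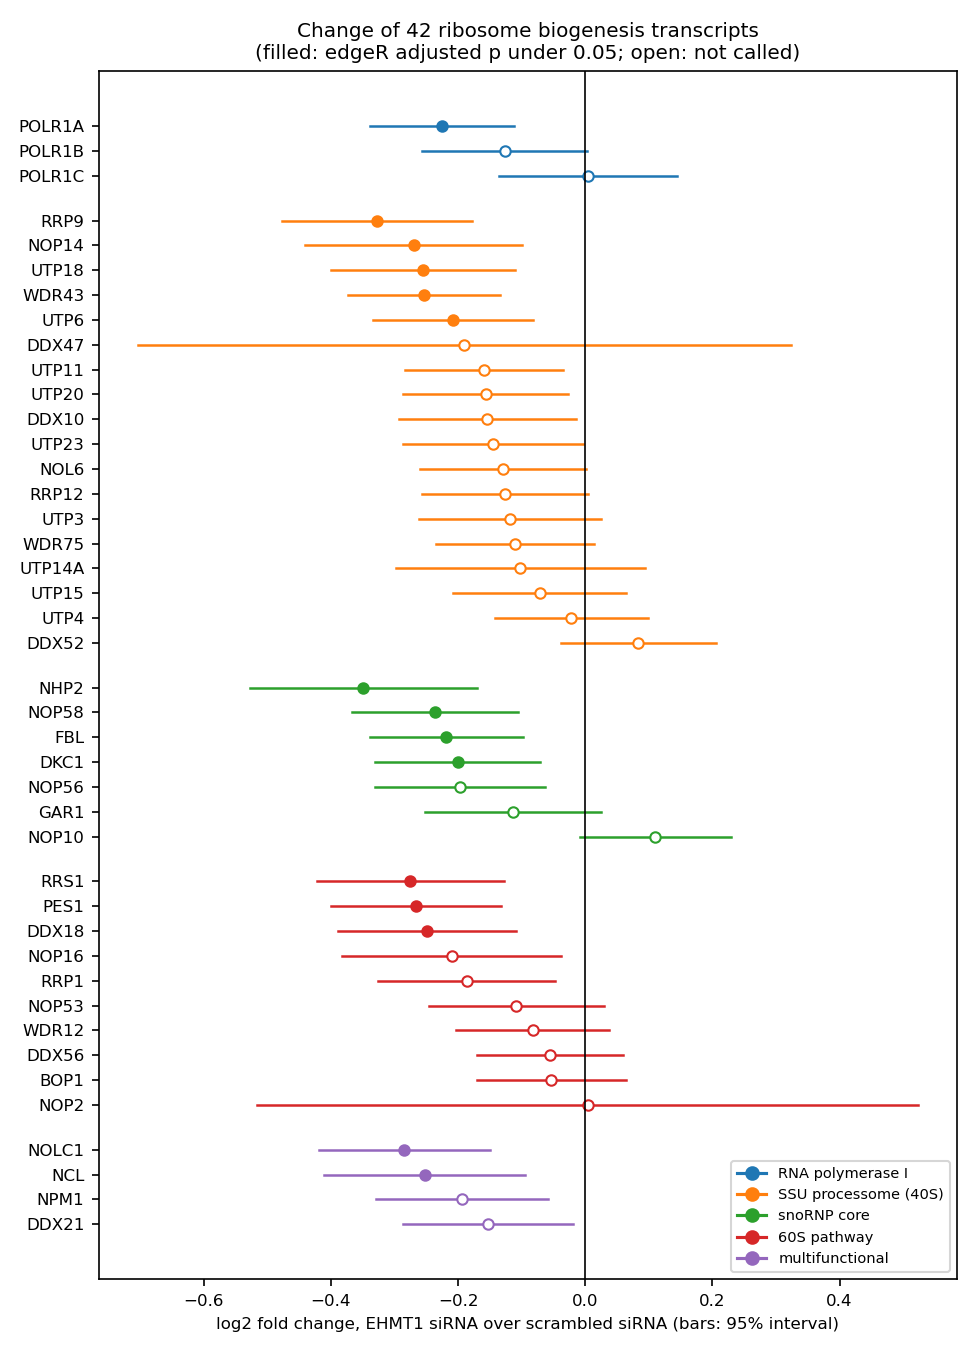
Log2 fold change of each of the 42 ribosome biogenesis transcripts, EHMT1 siRNA over scrambled siRNA (n = 3 libraries each), by role in the pathway, with its 95% interval; filled points passed the edgeR test. The 15 filled points all lie below 0, and 4 genes lie above 0: NOP10, DDX52, POLR1C and NOP2.

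The members' levels differed between libraries of 1 group as well as between the groups. Their CPM values summed to 8291, 8197 and 8019 in EHMT1 siRNA replicates 1, 2 and 3, against 9741, 9768 and 8601 in scrambled replicates 1, 2 and 3. Scrambled replicate 3 was the scrambled library nearest the EHMT1 siRNA libraries, and it was the lowest scrambled library for 29 of the 42 genes. Genes with any count numbered 27785, 26714 and 29089 in scrambled replicates 1, 2 and 3, against 28906 to 29265 with EHMT1 siRNA. Mitochondrial genes held 5.41% of gene counts in scrambled replicate 2 and 4.29% to 4.83% in the other libraries. The part of these library differences in the members' levels was not tested. The median over members of the SD of log2 CPM was 0.0360 within the EHMT1 siRNA group and 0.112 within the scrambled group. The groups' libraries did not overlap for 23 members lower with EHMT1 siRNA (54.8%), against 15.5% of all genes tested, and for 1 higher, NOP10, against 15.4%. Of those 23, 8 did not pass the test.

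**Figure D2:**
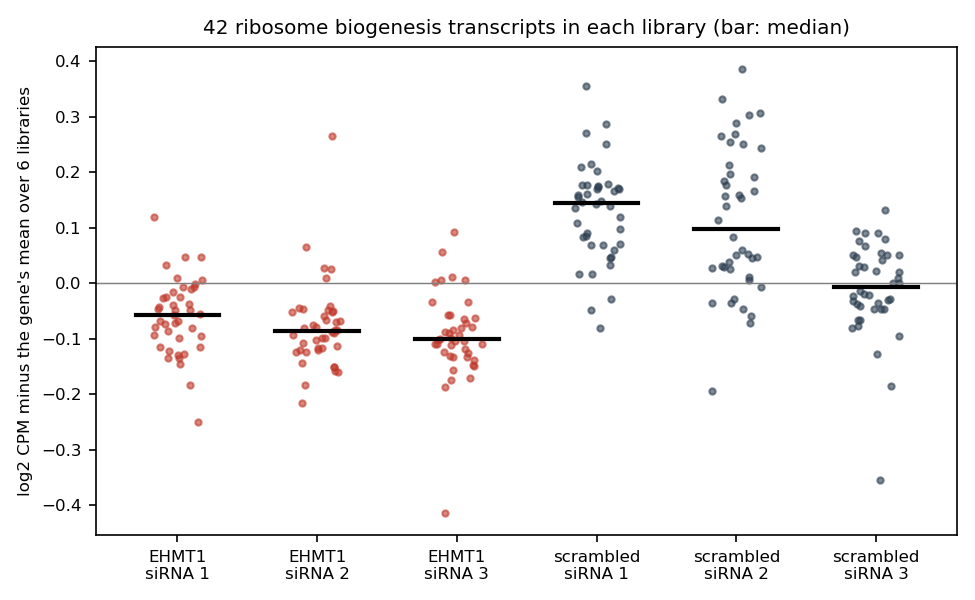
Each point is 1 of the 42 genes in 1 library, as its log2 CPM minus that gene's mean over the 6 libraries; bars are medians. The medians are -0.06, -0.09 and -0.10 in EHMT1 siRNA replicates 1, 2 and 3, and 0.14, 0.10 and -0.01 in scrambled replicates 1, 2 and 3.

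The number of calls depended on single libraries. Without EHMT1 siRNA replicate 1, 2 or 3, 2 members fell each time, and without scrambled replicate 1, 2 or 3, 8, 22 and 22 fell; over all genes tested, 484 to 1923 fell in the same 6 fits. None of the 15 genes passed the test in all 6 fits. POLR1A, PES1, RRS1, FBL, NCL, DKC1, UTP6, UTP18, NOP14, NOP58 and DDX18 lost the call whichever EHMT1 siRNA library was left out. A log2 change below 0 was kept in each of the 6 fits by 36 of the 42 genes. The members' median lay between -0.21 and -0.13 under every alternative tried.

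**Figure D3:**
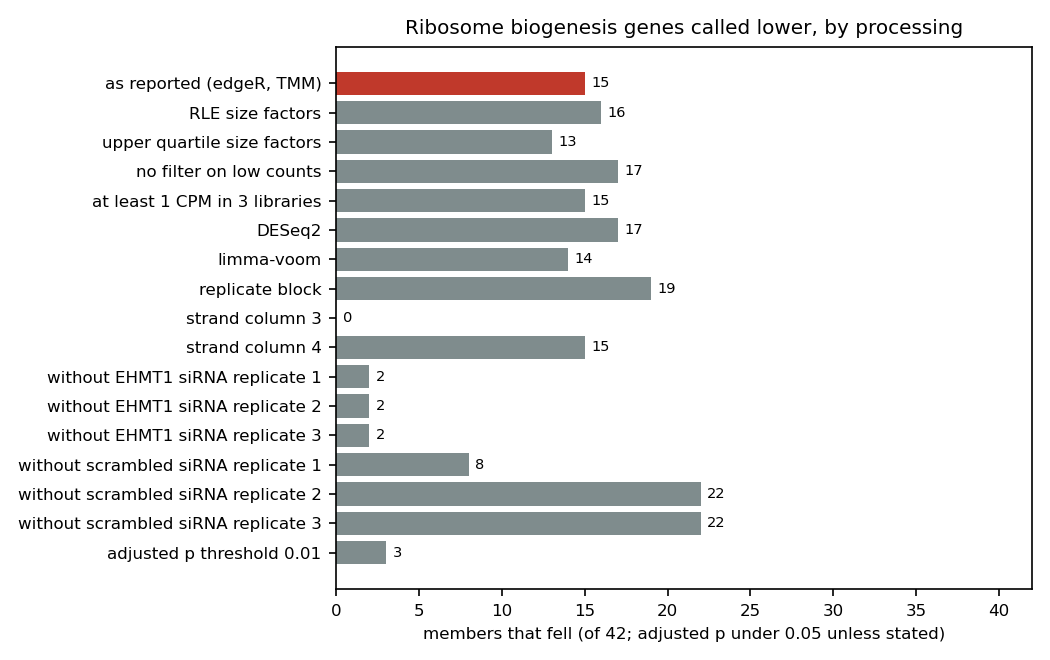
Number of the 42 genes that fell under each way of processing, the red bar being the count reported. The count is 13 to 19 across other size factors, filters, tools, the replicate block and strand column 4, is 2 without any 1 EHMT1 siRNA library, and is 0 in strand column 3.

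The promoters of the members are shown here because the letters CACGTG, the E-box form bound by MYC and MAX, are known from many genes of this pathway. RefSeq promoters on GRCh38.p14, from 250 bases before to 50 bases after the annotated start, matched 34 of the 42 genes, with 38 promoters in all; BOP1, DDX18, DDX52, NOLC1, NOP58, RRP12, RRS1 and UTP23 had no entry. CACGTG, which reads the same on both strands, stood in 14 of the 38 promoters (36.8%), against 7.26% of the 35116 promoters in the table and 9.12% of the 16160 promoters of protein-coding genes tested. Of its 16 matches in the members, 13 began within 50 bases of the start, as did 1042 of the 2821 matches over all promoters. Median GC content was 60.8% in the members' promoters and 58.7% in all. Of the 11 promoters of fallen members, 6 held the letters, and of the 27 promoters of members not called, 8 did. These are counts of promoters, not of genes. DDX21, GAR1, NPM1 and POLR1B, none of them called, were listed with alternative promoters. The fallen DDX18, NOLC1, NOP58 and RRS1 are missing from the count. The difference between fallen and other members was not tested. The matches in fallen members are printed 5′ to 3′ on the strand of the gene, with CACGTG in capitals between flanks of 12 bases.
RRP9: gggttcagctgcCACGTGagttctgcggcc
WDR43: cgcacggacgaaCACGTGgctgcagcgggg
UTP18, upstream match: gggagtgctggtCACGTGgcaagaggctgc
UTP18, match at the start: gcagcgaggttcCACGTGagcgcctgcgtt
NOP14: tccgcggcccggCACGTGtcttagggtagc
FBL: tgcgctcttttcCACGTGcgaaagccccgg
PES1: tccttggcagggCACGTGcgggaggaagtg

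These stretches lie at chr3:51941892-51941921 for RRP9 (minus strand), chr2:28894658-28894687 for WDR43 (plus), chr17:51260445-51260474 and chr17:51260538-51260567 for UTP18 (plus), chr4:2963374-2963403 for NOP14 (minus), chr19:39846356-39846385 for FBL (minus) and chr22:30591880-30591909 for PES1 (minus). The first base of CACGTG was at -5 in RRP9, 4 in WDR43, -89 and 5 in UTP18, 16 in NOP14, 7 in FBL and 14 in PES1, counted from 1 at the annotated start. The same letters also stood near the start of members that did not pass the test, of which 3 are printed for comparison. NOP10, whose level was higher with EHMT1 siRNA, has a second match at -170.
NOP10: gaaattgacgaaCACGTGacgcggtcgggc
UTP20: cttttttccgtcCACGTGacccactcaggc
UTP4: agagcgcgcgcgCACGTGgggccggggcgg

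The NOP10 stretch lies at chr15:34343130-34343159 (minus strand), the UTP20 stretch at chr12:101280083-101280112 (plus) and the UTP4 stretch at chr16:69132621-69132650 (plus). CCGGAAGT, an ETS-type word, stood on either strand in 8 of the 38 promoters (21.1%), 0 of them of a fallen member. Its share was 4.14% of all promoters and 6.91% of promoters of protein-coding genes tested. TTTCGCGC, an E2F-type word, stood in 0 of the 38, against 0.515% of all promoters and 0.792% of promoters of protein-coding genes tested. None of the 3 words contains another, and a match of letters is a description of the sequence, not a binding site.

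RNA polymerase I transcribes the rRNA genes, and 1 of its 3 subunits in the set fell. POLR1A (ENSG00000068654), the largest and catalytic subunit, had 243, 248 and 246 CPM with EHMT1 siRNA, against 281, 296 and 284 CPM with scrambled siRNA. Its 6 libraries fell into 2 tight groups with a clear gap, and by edgeR the adjusted p was 0.0106 for a log2 fold change of -0.23 (SE 0.054). The call was nevertheless lost without any 1 EHMT1 siRNA library (edgeR adjusted p = 0.0674 to 0.0825). The second-largest subunit POLR1B had a log2 change of -0.13, and POLR1C, which RNA polymerase III shares, of 0.00, and neither passed the test (adjusted p = 0.208 and 0.975). POLR1C shares exon bases with genes on the opposite strand, and its 95% interval ran from -0.14 to 0.15.

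The small-subunit (SSU) processome is the large early particle in which the 18S rRNA is cut out and folded, and it gave 5 fallen genes of 18, with a median log2 change of -0.15. RRP9 (ENSG00000114767), a protein of the U3 snoRNP at its centre, had the lowest adjusted p of the 42 genes. It had 50.3, 49.2 and 53.7 CPM with EHMT1 siRNA, against 63.3, 70.7 and 58.3 CPM with scrambled siRNA. All EHMT1 siRNA libraries were below all scrambled ones, and by edgeR the adjusted p was 0.00577 at a log2 change of -0.33 (SE 0.071). This call was lost without EHMT1 siRNA replicate 2 (adjusted p = 0.0551; 0.00161 to 0.0551 over the 6 fits with a library left out).

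WDR43 (ENSG00000163811), the human UTP5 of the subcomplex that links rRNA transcription to processing, had 148, 153 and 146 CPM with EHMT1 siRNA, against 183, 181 and 168 CPM with scrambled siRNA. The gap between the groups exceeded the spread within the EHMT1 siRNA group, at a log2 change of -0.25 (SE 0.057, adjusted p by edgeR 0.00728). The WDR43 call was lost without EHMT1 siRNA replicate 1 or 3 (edgeR adjusted p = 0.0526 and 0.0673). UTP18 (ENSG00000011260), a member of the UTP-B subcomplex, had 63.5, 62.5 and 64.0 CPM with EHMT1 siRNA, against 84.2, 69.6 and 72.8 CPM with scrambled siRNA. Scrambled replicate 1 stood above the other 2. The call was lost without it and without any EHMT1 siRNA library (adjusted p = 0.0645 to 0.112 in those 4 fits); over all libraries edgeR gave a log2 change of -0.26 (SE 0.068) with adjusted p = 0.0205. UTP6, also of UTP-B, changed by -0.21 and NOP14 by -0.27. NOP14 overlaps the antisense gene NOP14-AS1. Its call was lost in the strand-specific column (adjusted p = 0.0587), but also with upper quartile factors (0.0520), in limma-voom (0.0521) and in 4 of the 6 fits with a library left out.

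The other 13 SSU processome genes did not pass the test. UTP11 at -0.16, UTP20 at -0.16 and DDX10, a helicase, at -0.15 had 95% intervals wholly below 0, as did UTP23 at -0.14. NOL6, RRP12, UTP3, WDR75, UTP14A and UTP15 lay between -0.13 and -0.07. UTP4, a partner of WDR43 in its subcomplex, had nearly equal levels, with 86.1, 80.3 and 84.4 CPM with EHMT1 siRNA and 87.8, 82.6 and 84.3 CPM with scrambled siRNA, a log2 change of -0.02 with a 95% interval of -0.14 to 0.10. The helicase gene DDX52 was at 0.08. DDX47, another helicase gene, had only 37 to 72 counts per library.

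The 7 snoRNP core proteins in the set held the largest share of falls among its role groups, 4 of 7. The difference from the other groups was not tested. SNU13, a further core protein, is outside the set. It changed by -0.10 and did not pass (edgeR adjusted p = 0.239). Box H/ACA snoRNPs turn uridine into pseudouridine, and box C/D snoRNPs add methyl groups to ribose. NHP2 (ENSG00000145912), an RNA-binding protein of the H/ACA core, had 27.4, 29.2 and 30.3 CPM with EHMT1 siRNA, against 34.9, 42.6 and 33.3 CPM with scrambled siRNA. This was the largest change among the 42 genes, with log2 -0.35 (SE 0.084) and adjusted p = 0.0116 by edgeR. Scrambled replicate 2 was the highest of the 6 libraries. The NHP2 call was lost without EHMT1 siRNA replicate 1 or 2 (edgeR adjusted p = 0.0683 and 0.0592). NHP2 shares 414 exon bases with RMND5B on the opposite strand; in the strand-specific column its log2 change was -0.23, with an adjusted p of 0.01004. DKC1, the pseudouridine synthase of the same particle, changed by -0.20 (edgeR adjusted p = 0.0413).

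The H/ACA particle was not uniform in its transcripts. GAR1 at -0.11 did not pass the test, and NOP10 had 63.8, 62.8 and 65.7 CPM with EHMT1 siRNA, against 59.7, 58.7 and 59.7 CPM with scrambled siRNA. For NOP10 every EHMT1 siRNA library was above every scrambled library, while NHP2 and DKC1 had the opposite order and the groups of GAR1 overlapped. For NOP10 the log2 change of 0.11 (SE 0.056) had an adjusted p of 0.231 by edgeR. The difference between NOP10 and its partners was not tested.

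In the C/D particle, FBL (ENSG00000105202), the fibrillarin methyltransferase, had 207, 199 and 208 CPM with EHMT1 siRNA, against 231, 252 and 231 CPM with scrambled siRNA. Its groups were apart by more than the spread within either. The log2 change of -0.22 (SE 0.057) had an adjusted p of 0.0178 by edgeR, a call lost without any 1 EHMT1 siRNA library. NOP58 (ENSG00000055044), a scaffold of the particle, had 183, 181 and 178 CPM with EHMT1 siRNA, against 233, 204 and 203 CPM with scrambled siRNA. By edgeR its log2 change of -0.24 (SE 0.062) had an adjusted p of 0.0185, and the call was lost without scrambled replicate 1, its highest library, and without any EHMT1 siRNA library. NOP56 (ENSG00000101361), the partner scaffold, had 210.3, 209.8 and 203 CPM with EHMT1 siRNA, against 248, 251 and 215 CPM with scrambled siRNA. With a log2 change of -0.20 (SE 0.063) and an edgeR adjusted p of 0.0502, NOP56 lay just outside the threshold, and it passed in DESeq2 (0.0269) and in the strand-specific column (0.0449).

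In the 60S pathway 3 of 10 genes fell. PES1 (ENSG00000100029), which forms the PeBoW complex with BOP1 and WDR12, had 134, 135 and 132 CPM with EHMT1 siRNA, against 158, 176 and 148 CPM with scrambled siRNA. The groups did not overlap, and edgeR gave -0.27 on the log2 scale (SE 0.064, adjusted p = 0.0108), a call lost without any 1 EHMT1 siRNA library. Its partners WDR12 at -0.08 and BOP1 at -0.05 did not pass the test and had overlapping groups. RRS1 (ENSG00000179041), which helps to place the 5S RNP on the early 60S particle, had 30.7, 29.3 and 30.8 CPM with EHMT1 siRNA, against 36.8, 39.4 and 33.7 CPM with scrambled siRNA. EdgeR gave -0.28 on the log2 scale (SE 0.070, adjusted p = 0.0154), a call lost without any 1 EHMT1 siRNA library. RRS1 shares 194 exon bases with another annotated gene on the same strand.

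The helicase gene DDX18 (ENSG00000088205) had 200.1, 189 and 189 CPM with EHMT1 siRNA, against 253, 211 and 223 CPM with scrambled siRNA. EdgeR gave -0.25 on the log2 scale (SE 0.066, adjusted p = 0.0200), and the call was lost without scrambled replicate 1, its highest library, and without any EHMT1 siRNA library. RRP1 at -0.19 and NOP16 at -0.21 had 95% intervals below 0 but adjusted p of 0.0753 and 0.107. NOP53 at -0.11, the helicase gene DDX56 at -0.06 and NOP2 at 0.00 did not pass either.

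NOP2 and DDX47 cannot be judged here. They were the only members under 2 CPM, with 34 to 50 and 37 to 72 counts per library, while every other member had at least 1070 counts in each. In the GENCODE release 29 annotation NOP2, an rRNA methyltransferase gene, shares 2550 of its 4687 exon bases with another gene on the same strand, and DDX47 shares 1841 of 5040 with APOLD1. The annotation used for counting is not given in the sources used here. Counting that sets aside reads of shared bases gives them to neither gene, and 9.94% to 10.3% of all reads were set aside as ambiguous. Their 95% intervals were wide, from -0.52 to 0.52 for NOP2 and from -0.70 to 0.32 for DDX47.

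Of the 4 nucleolar proteins with several roles, 2 fell, and all 4 had an unadjusted p under 0.05. NOLC1 (ENSG00000166197), a chaperone of snoRNPs, had 394, 393 and 375 CPM with EHMT1 siRNA, against 477, 509 and 429.7 CPM with scrambled siRNA. EdgeR gave -0.28 on the log2 scale (SE 0.064, adjusted p = 0.00733), a call lost without EHMT1 siRNA replicate 3 (adjusted p = 0.0670). NCL (ENSG00000115053), nucleolin, was the most abundant transcript of the set per length, at 1261 TPM with EHMT1 siRNA and 1476 TPM with scrambled siRNA (mean over n = 3 each; TPM corrects for transcript length). It had 2336, 2326 and 2218 CPM with EHMT1 siRNA, against 2826, 3009 and 2359.8 CPM with scrambled siRNA. EHMT1 siRNA replicate 1 and scrambled replicate 3 nearly met, and edgeR gave -0.25 on the log2 scale (SE 0.075, adjusted p = 0.0355).

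NPM1 (ENSG00000181163), nucleophosmin, a histone and ribosome chaperone, had 1152, 1139.5 and 1101 CPM with EHMT1 siRNA, against 1396, 1307 and 1177 CPM with scrambled siRNA. The groups did not overlap, but the log2 change of -0.19 (SE 0.064) had an edgeR adjusted p of 0.0583, and it passed in DESeq2 (0.0255). GENCODE 29 names 45 pseudogenes after NPM1, with which its reads can be shared, so its level is uncertain. The helicase gene DDX21 was at -0.15 and did not pass (adjusted p = 0.135).

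**Figure D4:**
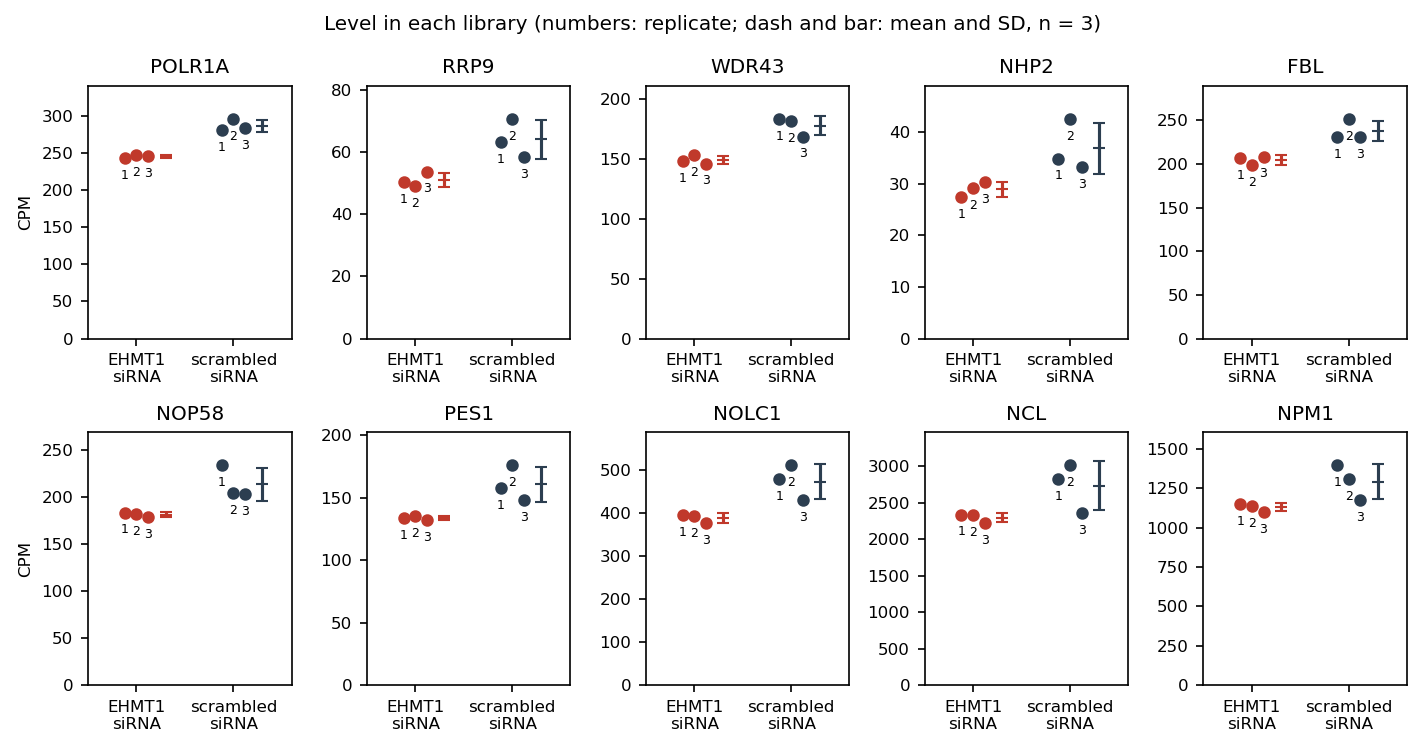
CPM of 10 genes in each library (points, labelled by replicate number), with the mean and SD of each group (n = 3); every vertical axis starts at 0. All 3 EHMT1 siRNA libraries are below all 3 scrambled libraries in each panel, by the least in NCL and NPM1, where scrambled replicate 3 is close to the EHMT1 siRNA libraries.

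Per length, the set was well expressed in both groups. Median levels over the 42 genes were 76.1 TPM with EHMT1 siRNA and 87.4 TPM with scrambled siRNA, and 35 of the 42 were above 50 TPM with scrambled siRNA, where the median of all genes tested was 11.4 TPM. Apart from NOP2 and DDX47, the lowest scrambled level was 18.9 TPM, that of POLR1C. Lengths were merged exons of GENCODE 29, which understates genes with long rarely used exons.

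Some members carry snoRNA genes within their own bounds, so 1 transcript can give both a protein and a guide RNA of the pathway. In GENCODE 29, 7 of the 42 genes held 19 snoRNA genes on their strand: 5 in NOP56, 4 in NOP58, 3 each in NCL and WDR43, 2 in DKC1 and 1 each in NOP53 and POLR1C. Of these 7 hosts 4 fell, against 11 of the other 35 members and 6.54% of all genes tested. The difference between hosts and other members was not tested. Poly-A capture does not measure the snoRNAs themselves.

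Host genes that give snoRNAs but no protein were described beside the coding members. Of 17 such genes, 2 rose and 0 fell by edgeR, where 5.81% and 6.54% of all genes tested did so (2 higher and 1 lower at an unadjusted p under 0.05, and 0 fallen by DESeq2 and limma-voom), with a median log2 change of 0.00. GAS5, a spliced host of many C/D snoRNAs, had 282, 259.8 and 260.5 CPM with EHMT1 siRNA, against 238, 203 and 230.3 CPM with scrambled siRNA. Its log2 change was 0.26 (edgeR adjusted p = 0.0156), and SNHG16 rose by 0.22 (adjusted p = 0.0286). Both calls depended on single libraries: with 1 library left out, GAS5 passed in 3 and SNHG16 in 2 of 6 fits.

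Factors of ribosome assembly outside the 42 genes were described by lists, whose counts of fallen genes stand against 6.54% of all genes and 8.49% of protein-coding genes tested. Of 31 other SSU processome and 40S factors, 9 fell and 0 rose, with a median log2 change of -0.17. NAT10, which acetylates cytidines of 18S rRNA, had 93.4, 87.4 and 89.8 CPM with EHMT1 siRNA, against 136, 133 and 119.7 CPM with scrambled siRNA. EdgeR gave -0.52 on the log2 scale (SE 0.061, adjusted p = 3.95e-05), and it passed in all 6 fits with a library left out, as did TSR1, a late 40S factor, at -0.34, the helicase gene DDX49 at -0.35 and the U3-associated IMP4 at -0.28. Fallen genes of this list numbered 4 to 13 in those fits.

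Of 41 other 60S assembly factors, 5 fell and 0 rose, with a median of -0.12. DDX51, a helicase of 28S rRNA maturation, changed by -0.28 and passed with any 1 library left out. MRTO4, a placeholder for the ribosomal stalk protein, changed by -0.23, NOC2L by -0.25 and LAS1L, a nuclease of the spacer between 5.8S and 28S rRNA, by -0.28, each passing in 3 of the 6 fits. Fallen genes of this list numbered 1 to 12 in them.

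The remaining RNA polymerase I list gave 3 fallen and 0 risen genes of 19, with a median of -0.08. POLR1G and POLR1E, which form a subunit pair of the enzyme, changed by -0.34 and -0.22, and TCOF1, treacle, an rDNA transcription and processing factor, by -0.24. These calls passed in 4, 2 and 1 of the 6 fits with a library left out. Of 13 snoRNP assembly factors, a list that also held the core protein SNU13, 3 fell and 0 rose, with a median of -0.13. The 3 fallen genes were PIH1D1 at -0.23 and RUVBL2 at -0.24, both of the R2TP chaperone complex, and PRMT1, an arginine methyltransferase, at -0.21. They passed in 3, 2 and 2 of those fits. The RNA exosome, which trims precursor rRNA, had 2 fallen and 0 risen genes of 14, EXOSC5 and EXOSC9, at -0.30 and -0.29, each passing in 4 of 6. In the 5 lists the counts of risen genes at an unadjusted p under 0.05 were 1, 0, 1, 0 and 0, in the order given, and DESeq2 and limma-voom called 0.

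**Figure D5:**
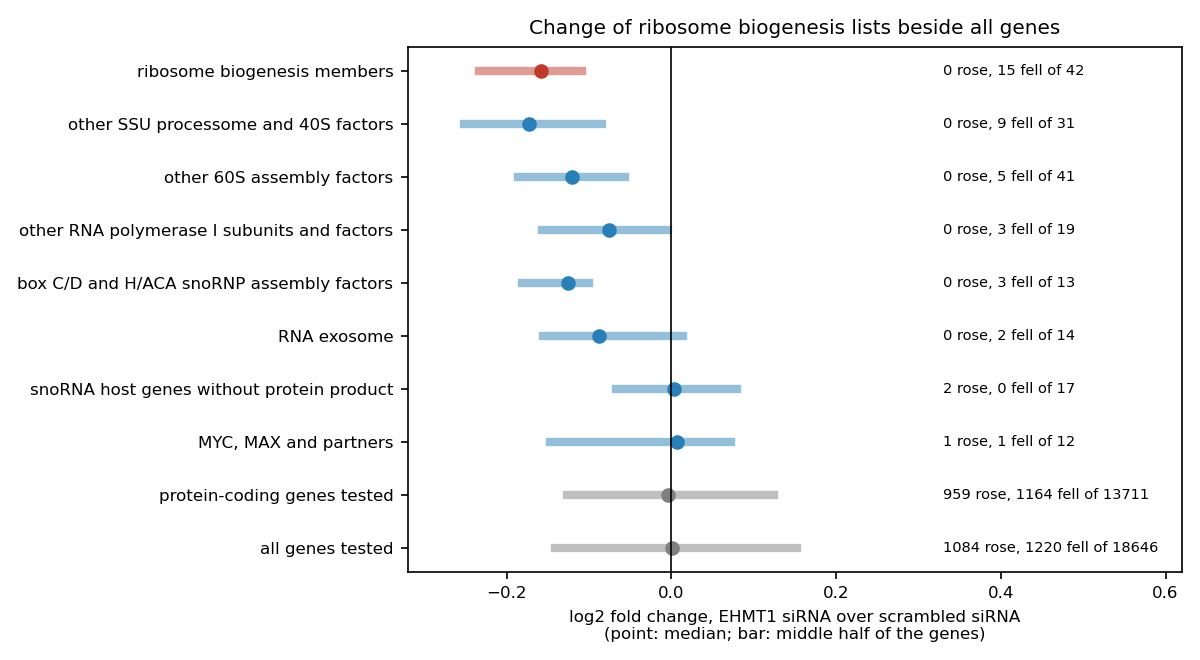
Median (point) and interquartile range (bar) of the log2 fold change, EHMT1 siRNA over scrambled siRNA, for the 42 ribosome biogenesis members (red), other lists of the pathway and its regulators (blue) and all genes (grey), with counts of genes that passed the edgeR test. The medians of the members and of the 40S and 60S lists are -0.16, -0.17 and -0.12, against 0.00 for all genes.

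MYC, the activator of ribosome biogenesis genes named above, was among the fallen genes. It had 158, 163 and 167 CPM with EHMT1 siRNA, against 185, 205 and 179 CPM with scrambled siRNA, and edgeR gave -0.22 on the log2 scale (SE 0.061, adjusted p = 0.0234). All EHMT1 siRNA libraries were below all scrambled ones, but with EHMT1 siRNA replicate 1, 2 or 3 left out the call did not hold. MXD4, a partner of MAX that represses MYC targets, rose by 0.22 (adjusted p = 0.0266), passing in 2 of the 6 fits. Over the 12 genes of the MYC and MAX list, 1 rose and 1 fell, where 5.81% and 6.54% of all genes tested did so. The part of MYC in the members' levels was not tested.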

How the data were processed

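Poly-A RNA libraries of 6 RD cell samples were used; per the labels' protocols the kit was NEBNext Ultra. Per the submitters' processing notes, STAR 2.5 and HTSeq 0.6.1 were among the tools, as were bcl2fastq, CASAVA and DESeq2, and hg19 was the build; no roles are given. The deposited values were the authors' raw counts per gene, not normalized, 1 file per library in the layout of STAR's gene table: an unstranded column, used here, and a column per strand. Of all strand counts, 87.1% to 89.0% were in column 4. Reads naming no gene (20.0% to 21.2%) were left out of library sizes. Of 61552 identifiers, 61399 had a symbol and 58352 were in GENCODE 29 on GRCh38, which gave lengths and overlaps. Gene coordinates are not given, as the notes name another build; promoter coordinates are those of RefSeq's GRCh38.p14 table.

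Groups came from sample titles. In R 4.3.3, edgeR 4.0.16 was used with filterByExpr (minimum count 10), TMM factors, a robust quasi-likelihood fit on group, and Benjamini-Hochberg adjustment over all 18646 genes at 0.05. CPM are TMM-scaled; marker sums and TPM are not. SEs are the absolute log2 change over the root of F. One spread per gene is assumed for both groups. A count of 0 allows up to 0.0635 to 0.0738 CPM (3 counts), covering counting error only. On simulated counts for 18328 genes, 31.3% of genes changed by 1.25-fold were recovered, against 67.3% at 1.5-fold, 91.8% at 2-fold and 100% at 3-fold. False calls made up 5.33%. The simulation changed 200 genes and gave all genes in both groups the same relative spread beyond sampling noise (0.0663). In the data the scrambled libraries varied more and 2304 genes were called, so these rates may not hold for this comparison. Alternatives were RLE and upper quartile factors, other filters, DESeq2 1.42.0, limma-voom (limma 3.58.1), a replicate block, each strand column, a threshold of 0.01 and leaving out each library.

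Members and lists were chosen with earlier results of these data known, so lists are described by counts and medians, with no test. Per-library values are given for up to 3 called members per role by adjusted p, and for POLR1A, FBL, NOP56, NCL and NPM1; from other lists up to 4 called genes are named. UTP4, NOP10 and NAT10, GAS5 and MYC values by library, and genes not called, were added to account for the set. The results of 1 list are not reported here.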

Additional observations from a re-analysis of the deposited data

How the results depend on the processing

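The members' median log2 change stayed between -0.21 and -0.13 under all alternatives, and risen members numbered 0 in each. Fallen members numbered 13 to 17 with other size factors, filters, tools and strand column 4, but 0 in strand column 3, which holds the minor share of strand counts, and 3 at a threshold of 0.01. With 1 library left out they numbered 2 to 22. Over all genes, strand column 3 gave 90 risen and 87 fallen, the threshold of 0.01 gave 492 and 525, and with 1 library left out 452 to 1625 genes rose while 484 to 1923 fell. The fits without a library have fewer samples; the cause beyond that was not tested. In strand column 3 the sign turned for NOP16 (0.15), GAR1 (0.061), WDR12 (0.080), BOP1 (0.094) and DDX52 (-0.0090), and in strand column 4 for NOP2 (-0.13). Of these genes NOP16 alone passed a test in any setting, as lower with the replicate block (edgeR adjusted p = 0.0430) and without scrambled replicate 3 (0.00832). With a library left out, log2 changes ran from -0.047 to 0.0045 for UTP4, from -0.21 to 0.031 for UTP14A, from -0.15 to 0.15 for NOP2 and from -0.028 to 0.040 for POLR1C.

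Whether the replicate numbers pair the samples could not be settled. Deviations of same-numbered libraries correlated weakly, at 0.13, 0.05 and 0.04. Differently numbered libraries correlated at -0.096 to 0.050, the highest being EHMT1 siRNA replicate 3 with scrambled replicate 2. With the replicate block 19 members fell, and 1474 genes rose and 1632 fell in all. Depth limits NOP2 and DDX47, whose counts could not show a change of the size seen in the other members.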
